A study of Ovis aries with 18 samples.

Results

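Psoas major (PM) was compared with longissimus lumborum (LL), both muscles of the loin, in 12 of the 18 RNA sequencing libraries of a study of sheep skeletal muscle. The comparison covered the 15186 genes, of 20477 in the table, whose mean over these 12 libraries reached 0.1 FPKM, a unit that scales the reads of a gene to its length and to the total of the library. The PM group held libraries PM 1 to PM 6 and the LL group LL 1 to LL 6, taken on the left of lamb carcasses. No treatment, genotype, breed, sex or exact age is stated. The design text says that the muscles came from each carcass, so PM and LL libraries may share carcasses. However, nothing ties a library number to a carcass. Another muscle, the soleus (SOL, 6 libraries), was left out of the fits. It is used below only as a further level for the same genes and in counts of genes read.

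The longissimus runs along the spine and extends it, whereas the psoas major lies beneath the vertebrae and flexes the hip. Skeletal muscles are mixtures of slow, oxidative fibres and fast, glycolytic fibres, and each fibre type makes its own set of contractile and metabolic proteins. In meat science the psoas is known as the tenderloin and is generally described as the more oxidative of the pair. The table names genes only by Ensembl sheep identifier, and 0 of these identifiers were found in the RefSeq gene table used. Gene functions are therefore not given, and the muscle labels were not checked against marker genes.

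Library totals ranged from 10216739 to 13747139 reads and did not differ between the muscles beyond the spread of the libraries (PM minus LL 545938 reads, two-sided exact permutation p = 0.35, n = 6 each). Over same-numbered pairs, PM had the larger total in 5 of 6 (exact sign-flip p = 0.0625, where the smallest possible is 0.03125). LL libraries covered fewer genes. At least 1 read was found for 12704, 13369, 13692, 13840, 14242 and 14552 genes in LL, and for 14647 to 14942 genes in every PM library, so that the muscles did not overlap (difference 1070 genes, exact permutation p = 0.0022, the smallest this design allows). LL 6 lay nearest to PM in this count. A low count was not limited to LL: SOL 5 had 14181 genes, below every PM library, at a total of 14747118 reads. The other SOL libraries had 14959 to 15421 genes. At 1 FPKM or more the counts were 11967 ± 214 genes in LL and 12179 ± 194 in PM (SD, n = 6 each), and this difference of 212 genes was not larger than the spread (exact permutation p = 0.10). LL libraries also differed more among themselves: over the 12352 genes that averaged 1 FPKM or more, the median distance of a library from the middle of the other 5 of its muscle was 0.368 ± 0.0712 log2 units in LL and 0.284 ± 0.0190 in PM (SD, n = 6 each, exact permutation p = 0.0043). Each distance was taken from the other libraries of the same muscle, so the 6 values of a muscle depend on each other. The p-value of the spread is therefore only a guide. LL 3 (0.487) and LL 2 (0.419) were the most distant. The SD over libraries was larger in LL than in PM for 73.7% of the genes tested.

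PM and LL were set against each other to ask which genes differ in level between these muscles. In PM, 74 genes were higher (0.487% of those tested) and 57 were lower (0.375%), which makes 131 genes or 0.863% (limma on 12 libraries with no block, Benjamini-Hochberg adjusted p under 0.05, two-sided). In whole muscle, fewer cells of a type and less RNA per cell cannot be told apart. At an unadjusted p under 0.05 there were 1733 genes. The median log2 fold change of the 74 higher genes was 1.49, or 1.42 with the 6 genes that had no read in LL set to the bound that 3 reads per library would allow. The median of the 57 lower genes was -1.19, and the median of all genes tested was 0.06. Because 0.1 was added to each FPKM value before taking log2, the change of low genes is understated. Of the 131 genes, 88 differed by at least 1 on this scale, 38 by at least 2 and 17 by at least 3. In 95 of them the 6 PM values lay entirely outside the range of the 6 LL values, to one side. Over all genes tested, the muscles failed to overlap in 204 genes (1.34%), 110 with PM above LL and 94 with PM below.

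**Figure D1:**
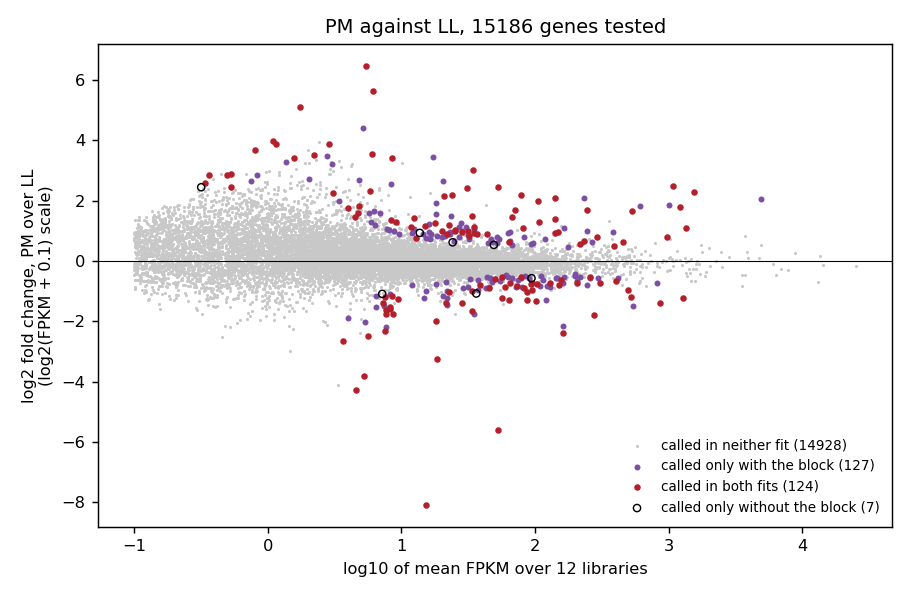
Log2 fold change of PM over LL (vertical axis, log2(FPKM + 0.1) scale) against the log10 of the mean FPKM over 12 libraries (horizontal axis), with 1 point per gene tested. The 124 genes called in both fits and the 127 called only with the replicate number as a block spread over the whole range of levels above 1 FPKM, whereas below it the called genes lay only on the side of PM.

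The share of genes called rose with their level. At 100 FPKM or more, 643 genes were tested and 33 called (5.13%), 18 higher and 15 lower in PM. Among 5664 genes at 10 to 100 FPKM, 58 were called (1.02%), 31 higher and 27 lower, and among 6045 genes at 1 to 10 FPKM, 33 (0.546%), 18 higher and 15 lower. Among the 2834 genes at 0.1 to 1 FPKM, 7 were called (0.247%), all 7 higher in PM. The median fold change of all genes in this lowest band was 0.34, against -0.06 in the band of 100 FPKM or more. Fewer genes were also read in LL, and the part of this in the lean towards PM at low level was not tested. Precision differed between the bands as well: the median standard error of a log2 fold change was 0.71 at 0.1 to 1 FPKM, 0.36 at 1 to 10, 0.18 at 10 to 100 and 0.15 at 100 or more.

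The 18 abundant genes higher in PM had log2 fold changes of 0.50 to 2.50 (median 1.18), and the 15 lower ones had falls of 0.52 to 2.38 (median 0.80). All 33 moved in the same direction in each of the 6 same-numbered pairs of libraries and were also called with the block. This largely follows from the call on the same libraries. Of the 131 genes called at any level, 126 moved alike in all 6 pairs and 124 were called with the block. Over all 15186 genes tested, 1216 moved alike in all 6 pairs. The muscles did not overlap in 10 of the 18 and in 11 of the 15. Among all 643 genes of this level, PM lay wholly above LL in 15 and wholly below in 31. The very top of the transcriptome was shared in membership: 19 genes were among the 20 most abundant of both muscles. Levels were not all alike: log2 fold changes of the 21 genes in either set ran from -0.83 to 2.07 (median absolute value 0.28). The largest fall and rise belong to the genes of 766 bp and 685 bp described below. Of the 21 genes, 0 were called without the block (limma) and 1 was called with it. The 100 most abundant genes of each muscle had 84 in common and made 116 in all, of which 7 were called higher and 4 lower in PM. For all 643 genes of 100 FPKM or more, these counts were 18 and 15, or 5.13% together. The libraries of SOL were outside these fits. Its mean lay above both loin muscles for 14 of the 18 genes higher in PM, and below both for 14 of the 15 genes lower in PM. Among genes of this level that were not called, SOL lay above both in 116 of the 247 with the higher mean in PM (47.0%) and below both in 199 of the 363 with the lower mean (54.8%), and the difference was not tested.

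Over all levels together, the called genes were close to the rest in length, which was not tested. Their median recovered length was 1585 bp, against 1503 bp for all genes tested. Of the 3803 shortest genes (up to 911 bp) 28 were called, and of the 3797 longest (above 2458.75 bp) 36, that is 0.736% and 0.948%. The median standard error was 0.48 in the shortest and 0.23 in the longest genes. Within bands of level the shares differed, on small counts and untested. Of the genes with 100 FPKM or more, 7 of the 227 shortest (3.08%) and 11 of the 97 longest (11.3%) were called. With the block these became 8.37% and 13.4%. In the band of 10 to 100 FPKM the longest genes had 1.16%, against 0.587%, but with the block 1.99%, against 2.01%. The shortest genes led at lower levels: 0.632% over 0.38% (1 to 10 FPKM), then 0.521% over 0.177% (0.1 to 1 FPKM).

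Of the genes called in each fit that left out 1 library, 4 are given by identifier: in each direction the largest log2 fold change and the highest mean level. The rule also asked for muscles that do not overlap. Separate muscles and the same direction in 6 of 6 pairs therefore follow from the choice and are no further result. ENSOARG00020004175 (recovered length 1062 bp) was read in PM alone among the loin muscles. It had 0 reads in every LL library, and 22.8 FPKM in PM 1, 7.67 in PM 2, 7.03 in PM 3, 3.78 in PM 4, 18.6 in PM 5 and 5.29 in PM 6. PM 1 and PM 5 stood above the other PM libraries, and the lowest PM library still held 50 reads. The gene passed the filter on mean level through PM alone. The PM mean of 10.9 ± 7.85 FPKM (SD, n = 6) exceeded the level that 3 reads in each LL library would give by at least 45.1-fold (higher in 6 of 6 pairs, adjusted p = 4.7e-06 in limma). SOL held 0.702 to 2.55 FPKM, between both muscles of the loin.

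ENSOARG00020018512 (2215 bp) was the most abundant of the 34 genes that were higher in PM and met the naming rule. It stood at 184, 241, 197, 217, 234 and 205 FPKM in LL 1 to LL 6, and at 362, 430, 344, 358, 314 and 396 FPKM in PM 1 to PM 6. The muscles were separate: the highest LL library was LL 2 and the lowest PM library PM 5, which lay above it. Its means were 213 ± 21.9 FPKM in LL and 367 ± 40.6 in PM (SD, n = 6 each), and PM exceeded LL by 0.78 on the log2 scale, with an SE of 0.11 and an adjusted p of 0.0046 in limma. The SOL level was 415 ± 44.7 FPKM (SD, n = 6).

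ENSOARG00020005847 (1401 bp) was read in LL and nearly absent from PM. Its levels in LL 1 to LL 6 were 19.0, 34.2, 29.7, 36.6, 42.2 and 20.8 FPKM. In PM it had 1 read, in PM 2, and 0 in the other 5 libraries. Scaled to the totals, LL held 3188 times the reads of PM (exact 95% interval 572 to 125956, for counting error only), and the difference passed the test (limma adjusted p = 2.0e-09, lower in PM in 6 of 6 pairs). LL 1 (313 reads) and LL 6 (325 reads) held the lowest LL levels.

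ENSOARG00020009011 (2748 bp) was the most abundant of the 21 genes that were lower in PM and met the rule, and it was graded over the 3 muscles. It stood at 993, 1091, 1554, 1362, 1379 and 1033 FPKM in LL 1 to LL 6, and at 450, 260, 478, 606, 656 and 468 in PM 1 to PM 6. PM 2 was the lowest library and no PM library reached the lowest LL value. LL averaged 1235 ± 227 FPKM, PM 486 ± 139 and SOL 23.5 ± 6.61 (SD, 6 libraries each). PM over LL gave -1.38 on the log2 scale, with an SE of 0.21 and an adjusted p of 0.0051 in limma.

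**Figure D2:**
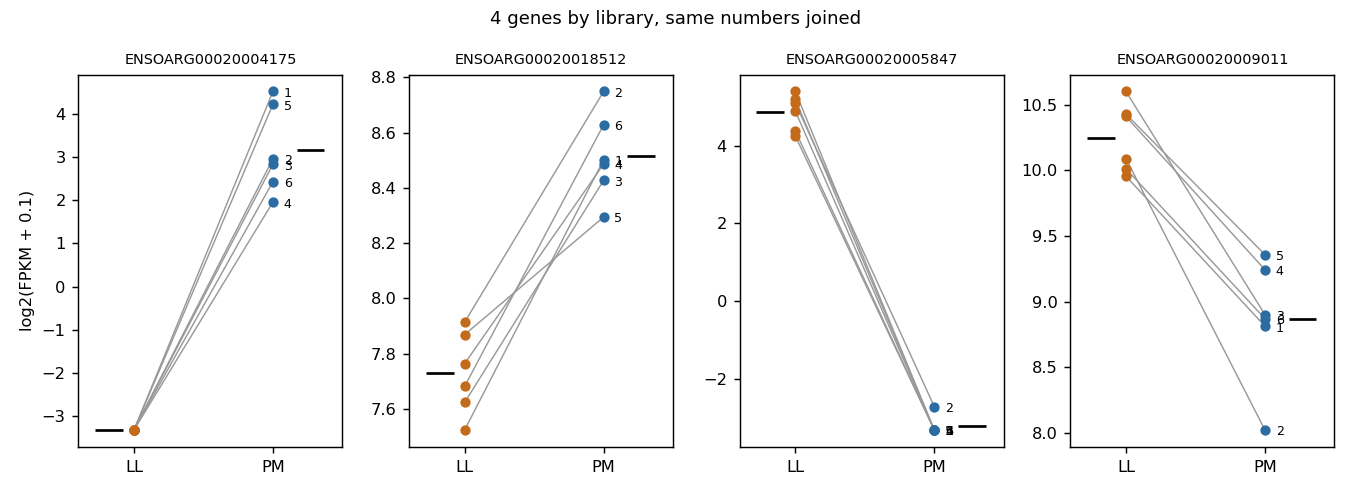
Levels of the 4 genes given by identifier, as log2(FPKM + 0.1) (vertical axis, a different range in each panel), in the 6 LL and 6 PM libraries. Points are libraries, grey lines join libraries of the same number, the digits give that number, and black bars are means. In each panel the 6 PM points lie wholly above or wholly below the 6 LL points, as the rule of choice required.

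With the replicate number as a block of 6 levels, which compares each PM library with the LL library of its number, more genes were called. The block gave 251 calls (1.65%), of which 139 were higher in PM (0.915%) and 112 lower (0.738%), by limma at an adjusted p under 0.05, with 2074 genes at an unadjusted p under 0.05. Of the 131 genes called without the block, 124 were called with it and 7 were not, and 127 were called only with it. By level, the block gave 8 calls at 0.1 to 1 FPKM (0.282%), 56 at 1 to 10 (0.926%), 123 at 10 to 100 (2.17%) and 64 at 100 or more (9.95%). The fold changes themselves are the same in both fits, and only their errors differ. For the 127 genes called only with the block the median standard error was 0.26 without it and 0.17 with it, whereas for all genes it was 0.29 and 0.26. With the fold changes the same, genes called only with the block are largely chosen for a smaller error, so this fall is no separate result. These 127 genes changed less (median absolute log2 fold change 0.90, against 1.35 for the 124 called in both), the muscles overlapped in 110 of them by library, and 118 moved in the same direction in all 6 pairs. Over all 15186 genes tested, 1216 did so in all 6 pairs, and a call with the block favours such genes.

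The most abundant gene called only with the block shows the pattern. It was chosen after its values were seen and has a recovered length of 685 bp. It stood at 1693, 6119, 2816, 1720, 337 and 1083 FPKM in LL 1 to LL 6, and at 8425, 9604, 7824, 7646, 2113 and 9812 in PM 1 to PM 6. LL 5 and PM 5 were the lowest libraries of their muscles, LL 2 and PM 2 the highest and the next to highest, and LL 2 and LL 3 exceeded PM 5. PM exceeded LL in all 6 pairs, by 0.65 to 3.18 on the log2 scale. The log2 fold change of 2.07 had an SE of 0.56 and a limma adjusted p of 0.12 without the block, and an SE of 0.30 and an adjusted p of 0.0068 with it. In SOL this gene reached 37633 ± 8318 FPKM (SD, n = 6).

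Another gene of this kind was called in both fits. The most abundant called gene whose muscles overlapped (5985 bp, chosen after its values were seen) stood at 745, 1447, 763, 529, 118 and 229 FPKM in LL 1 to LL 6 and at 2745, 3079, 3221, 2558, 1184 and 1934 in PM 1 to PM 6. Numbers 5 and 6 were the lowest in both muscles, and LL 2 exceeded PM 5. Its log2 fold change was 2.29 (limma adjusted p = 0.036 without the block and 0.0017 with it), and it was called in 5 of the 12 fits that left out 1 library, losing the call without LL 6 among others (adjusted p = 0.056). SOL held 5704 ± 648 FPKM (SD, n = 6).

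The count of genes changed strongly when single libraries were left out. A fit without 1 library is also smaller, whichever library it is, and the part of this in the lower counts was not tested. Of the 131 genes called on all 12 libraries, 58 (0.382% of those tested), 37 higher and 21 lower, were called in each of the 12 fits that left out 1 library. All 58 were also called with the block, 55 had muscles that did not overlap, and their median absolute log2 fold change was 1.49. The other 73 genes lost the call in at least 1 such fit, and 51 of them were called in fewer than 6. With PM 1, PM 2 or PM 4 left out 73 genes were called, with PM 6 left out 78, with PM 3 94 and with PM 5 108. Leaving out an LL library other than LL 6 gave 88 (LL 5), 96 (LL 1), 101 (LL 3), 107 (LL 4) or 128 calls (LL 2). Only 3 of the 131 genes lost the call through 1 library and no other, 2 of them without PM 2 and 1 without PM 6. The lower calls fell to 28 without LL 5, to 37 without LL 1 or LL 3, to 30 without PM 1, PM 2 or PM 4 and to 31 without PM 6. The higher calls fell to 43 without PM 1, PM 2 or PM 4 and to 47 without PM 6.

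Leaving out LL 6 raised the count to 209 genes of 15144 tested (1.38%), although the fit then held fewer libraries. It was the only library whose removal raised the total, and the lower calls grew most, from 57 to 106, while the higher calls went from 74 to 103. Of the 131 genes, 118 were called again, and 91 further genes were called, 37 higher and 54 lower in PM. The split thus went from 74 against 57 to 103 against 106. With LL 3 left out as well there were 168 calls. With LL 6 left out under median-ratio scaling there were 171, 99 higher and 72 lower, so the nearly even split without LL 6 was not seen under that scaling.

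**Figure D3:**
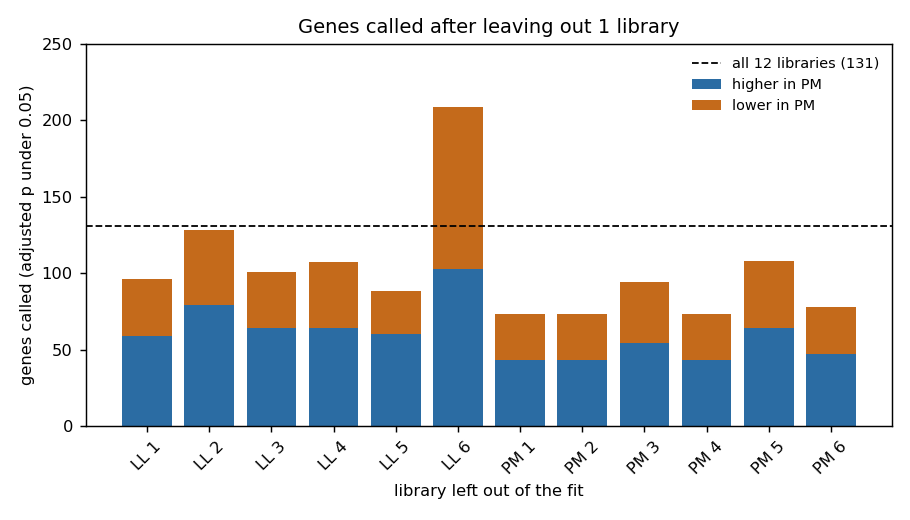
Number of genes called (vertical axis, limma adjusted p under 0.05, no block) after leaving out each library (horizontal axis), split into genes higher and lower in PM. The dashed line is the 131 genes called with all 12 libraries, and only the bar without LL 6, at 209, rises above it.

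Each library was then placed between the muscles by genes it had no part in choosing. For the genes called without a library, its place was set at 0 for the mean of the LL libraries used and at 1 for the mean of the PM libraries used, and the median over genes was taken. PM 1, PM 2, PM 3, PM 4 and PM 6 lay at 0.99, 0.97, 0.86, 0.97 and 0.86, and PM 5 at 0.77. LL 1, LL 2, LL 3, LL 4 and LL 5 lay at 0.14, 0.24, 0.09, 0.13 and 0.01. LL 6 lay at 0.51, midway between the muscles, over the 209 genes called without it. It was nearer to its own muscle in 102 of these 209 genes (48.8%), where the other LL libraries were nearer to theirs in 64.8% to 86.1% of genes and the PM libraries in 68.5% to 94.5%. The place of LL 6 was 0.65 for the 106 genes lower in PM and 0.33 for the 103 genes higher in PM, and LL 2 stood at 0.38 for the higher genes. The genes were chosen for a difference between the remaining libraries, so these places are a description and carry no test.

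**Figure D4:**
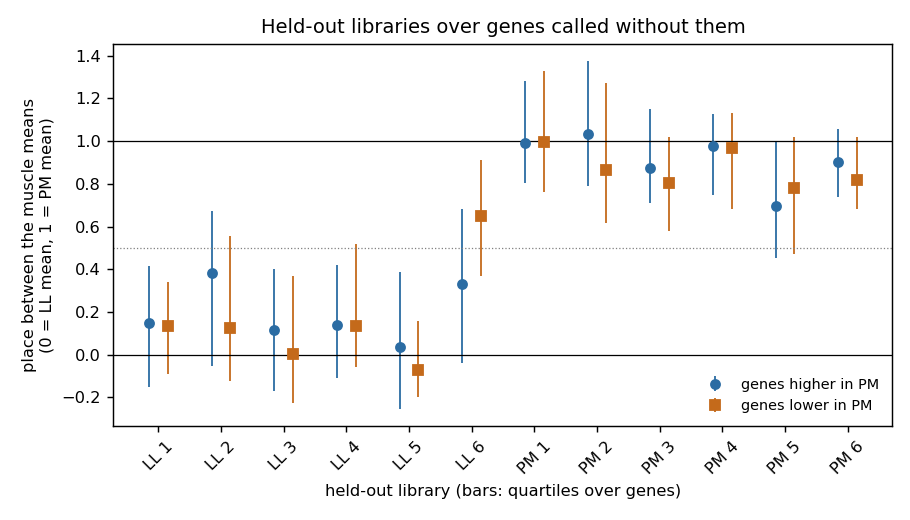
Place of each held-out library between the muscle means (vertical axis, 0 at the LL mean and 1 at the PM mean), over genes called without that library, separately for genes higher and lower in PM. Points are medians and bars are quartiles over genes, and LL 6 stands apart from the other LL libraries for genes lower in PM.

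The overall likeness of the libraries, which uses all genes and no calls, also set LL 6 apart. Over the 643 genes of at least 100 FPKM, the median absolute log2 difference between LL 6 and the other LL libraries averaged 0.317, and that between LL 6 and the PM libraries of other numbers averaged 0.272. LL 6 was the only library of the 12 that was closer to the other muscle at this level: the other LL libraries lay at 0.266 to 0.348 from LL and at 0.310 to 0.418 from PM. Over the 6307 genes of at least 10 FPKM, LL 6 was again closer to PM (0.292) than to LL (0.351), and LL 1, LL 2 and LL 4 were so by a smaller margin. Over all 15186 genes LL 6 again was closer to PM (0.421) than to LL (0.496), and so was LL 4 (0.436 and 0.461). The pair LL 6 and PM 6 was the closest of the 6 numbered pairs at 0.354, and the pairs of number 2 (0.575) and number 3 (0.581) were the most distant. Over the 57 genes lower in PM, the median fall was smallest in pair 6, at -0.82, against -1.04 to -1.17 in the other pairs. LL 6 also had 325 genes with 1 read, against 111 to 206 in the other LL libraries and 310 to 398 in PM. In SOL there were 140 such genes in SOL 5 and 355 to 384 in the other libraries. The part of genes with 1 read in the place of LL 6 was not tested.

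The most abundant gene called only when LL 6 was left out is given as an example (766 bp, chosen after its values were seen). This gene was chosen because its call is lost with LL 6 in the fit. A level of LL 6 towards PM thus largely follows from the choice, and the gene is no further support for the place of LL 6. It stood at 4481, 6873, 3731, 4740 and 4856 FPKM in LL 1 to LL 5 and at 2789 in LL 6. In PM 1 to PM 6 it stood at 2539, 2446, 2590, 2607, 2348 and 2394 FPKM. PM libraries lay close together, LL 6 lay just above them, and the other LL libraries were well above both. Its log2 fold change was -0.83 with all libraries (SE 0.22, limma adjusted p = 0.10) and -0.96 without LL 6 (adjusted p = 0.033). With the block and all libraries the adjusted p was 0.074.

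**Figure D5:**
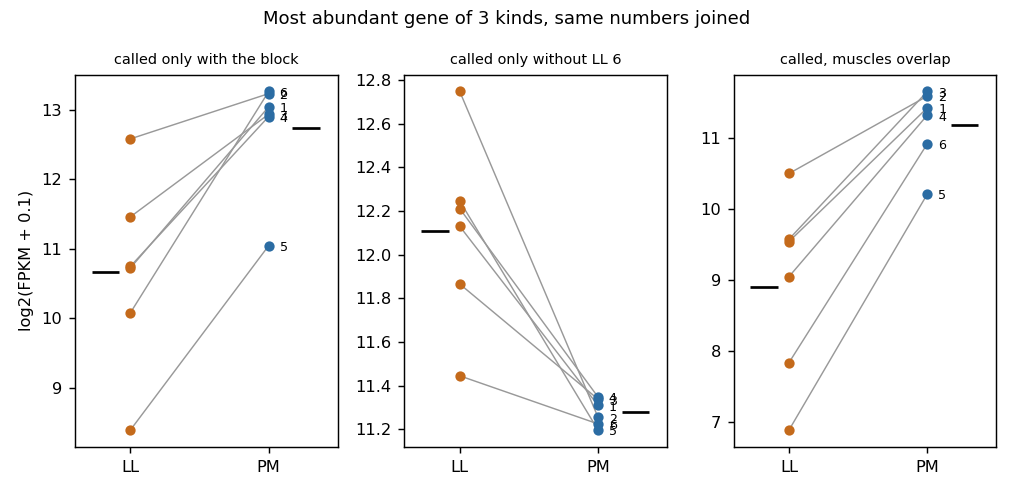
Levels of 3 single genes as log2(FPKM + 0.1) (vertical axis, a different range in each panel) in the 6 LL and 6 PM libraries, with libraries of the same number joined and black bars for means. In the left and right panels number 5 is lowest in both muscles. In the middle panel, a gene chosen as called only without LL 6, LL 6 lies next to the PM libraries at 2789 FPKM.

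With the block, leaving out both libraries of any number, number 6 included, lowered the count from 251. There were 81 calls without number 1, 179 without number 2, 154 without number 3, 99 without number 4, 126 without number 5 and 182 without number 6. Genes called with the block and in all 6 of these fits numbered 69, 41 higher and 28 lower in PM. Without number 6, lower calls (102) outnumbered higher calls (80), the reverse of the other 5 fits.

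Genes with reads in every library of one muscle and in none of the other were few. Over the whole table, 10 genes had reads in all 6 PM libraries and in 0 LL libraries, and 0 genes had the reverse. All 10 also had reads in SOL, 3 of them in every SOL library. Their median was 5.5 reads per PM library, and 8 of them passed the filter on mean level, through PM alone. In the looser sense, 1021 genes had reads in at least 1 PM library and in 0 LL libraries, against 324 the other way, and the median of either set was under 0.1 FPKM. A gene without reads in 1 muscle is not shown to be absent from it at this depth.

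The level of SOL was also set beside all genes called between the loin muscles. Of the 74 genes higher in PM, SOL was above both muscles in 47, between them in 20 and below both in 7. SOL was likewise above both in 5082 of the 8475 genes that were not called and had the higher mean in PM, a share close to the 63.5% of the called genes. Of the 57 genes lower in PM, SOL was below both in 32, between them in 17 and above both in 8, and its share below both was 56.1%, against 36.4% of genes that were not called and had the lower mean in PM. By mean log2 level SOL was nearer to PM than to LL in 60 of the 74 and in 43 of the 57. For genes that were not called, SOL was nearer to PM in 72.3% of the 8475 with the higher mean in PM and in 46.8% of the 6580 with the lower mean. These shares were not tested.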

How the data were processed

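Total RNA of sheep muscle was depleted of ribosomal RNA and sequenced. Reads were trimmed, then aligned by HISAT2 (2.2.1), and transcripts were assembled by StringTie (2.2.0), per the labels' protocols. Of the genome build, annotation, counting program and strand, the sources used here give nothing. The authors deposited 1 table of FPKM values whose header names no unit, so the unit was read from the values: each positive value was within 0.002 of a whole number of reads for 1 gene length and 1 library total, which gave reads, lengths and totals. Of the lengths recovered for genes read in 12 or more libraries, 50.9% were divisible by 3.

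Genes averaging at least 0.1 FPKM over the 12 libraries were tested on the log2 scale after adding 0.1, using limma (3.58.1, in R 4.3.3) with a variance trend, without a block (10 residual degrees of freedom) and with the replicate number as a block (5), adjusted by Benjamini-Hochberg over all genes. Single values per library were tested by two-sided exact permutation in scipy (1.17.1), and scripts were tested on simulated data. Nothing ties the libraries to separate animals, so a p-value reflects only how these libraries vary, which may be technical. The fit without a block and the permutation tests treat the 12 libraries as independent, although both muscles came from each carcass. The named genes were called without the block, with it and in all 12 fits that left out 1 library, had muscles that did not overlap and averaged at least 0.5 FPKM, and in each direction the largest fold change and the highest mean were taken. The comparison, gene lists and rules were chosen with earlier results of these data known. The gene lists, fibre types and other cell types among them, had no members, because identifiers matched no names. Alternatives were other pseudocounts, filters, scalings, weights, a robust variance prior, voom on recovered reads, a fit on all 18 libraries, and leaving out libraries.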

Additional observations from a re-analysis of the deposited data

Results flagged for a closer look

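In each muscle the highest and the lowest of 6 libraries were set against the others by Dixon's ratio at its 95% critical value. Of 23 sets tested, 2 passed, where chance would give about 1.15. The number of genes called without a library was 209 for LL 6 and at most 128 for any other LL library. These counts come from fits that share most of their libraries, so the chance figure does not hold for them. For ENSOARG00020005847 the single read found in PM 2 (0.0519 FPKM) passed because every other PM value was 0, a case for which the chance figure does not hold either. The place of LL 6 between the muscles (0.51, with LL 2 next at 0.24) was among the sets tested and did not pass.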

How the results depend on the processing

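The 131 calls (74 higher, 57 lower) became 251 with the replicate block (139 higher, 112 lower), 242 with the block as a random term (138 and 104) and 231 in the fit on all 18 libraries (144 and 87). Leaving out 1 library gave 73 to 209 calls, 43 to 103 higher and 28 to 106 lower. Other pseudocounts and filters, median-ratio scaling, voom, weights and the robust prior gave 117 to 177 calls. Chosen after seeing the data, leaving out LL 6 with a filter of 10 FPKM gave 211 calls, 83 higher and 128 lower. The 251 calls of the replicate block became 81, 179, 154, 99, 126 and 182 when numbers 1 to 6 were left out in turn, and rose to 417 with voom on recovered reads, also chosen after seeing the data.

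The numbers did not meet the rule set for pairing, which asked for r above 0.1 in every pair: deviations from the muscle means correlated at 0.092 to 0.18 across genes in same-numbered pairs, and at -0.076 to 0.0064 between other libraries. Each of the 12 libraries correlated best with its own number. Of the 4 genes given by identifier, 3 were called under every alternative that tested them. ENSOARG00020005847 missed the threshold only with LL 6 left out and a filter of 10 FPKM (log2 fold change -8.19, limma adjusted p = 0.065, against 0.0036 or less otherwise). The log2 fold change of ENSOARG00020004175 was 3.32 with a pseudocount of 1 and 9.78 with 0.01. The difference in genes detected was 212 at 1 FPKM or more (exact permutation p = 0.10), and 864.5 to 1234.1 with any read when a library was left out. The larger spread in LL passed the threshold when the value of any 1 library was left out and over numbered pairs. The distances were not computed anew for this, and they depend on each other. For genes of 10 FPKM or more the spread passed without pairs (exact permutation p = 0.028) but not over pairs (exact sign-flip p = 0.0625). The place of LL 6 was 0.47 to 0.55 under another filter, pseudocount or scaling. Below 1 FPKM the median standard error was 0.71, against 0.15 at 100 FPKM or more.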
